A study of Sus scrofa with 2 samples.

Results

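OAS2, USP18, IL18 and CCL5 are 4 genes of interferon and cytokine signalling. They were followed in the longissimus dorsi, a back muscle, of fattening pigs kept in a temperate or a hot room. They are 4 of the 27987 entries of the deposited table, each found by its Ensembl pig identifier and gene symbol, and each symbol stood on 1 entry. The genes were chosen by their heat to control ratios in these same 2 libraries, as the 2 highest and the 2 lowest of a longer list of interferon and inflammatory genes. That OAS2 and IL18 lie on the high side and USP18 and CCL5 on the low side is therefore a consequence of the choice and no finding.

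The animals were 16 crossbred barrows, castrated males of the DLY cross (Duroc sires on Yorkshire-Landrace dams), weighing 79.0 ± 1.5 kg and drawn from 8 litters. For 21 days, 8 pigs lived at 22 °C, the control arm, and 8 at 30 °C, the heat arm. Each arm is represented by 1 messenger RNA library. The labels do not say how many pigs contributed RNA to it. With 1 library per arm no difference below has a replicate check or a test, and an effect of temperature and a difference between the sets of pigs or between the preparations cannot be told apart. In whole muscle, fewer cells of a type and less RNA per cell cannot be told apart either.

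Interferons are secreted proteins that warn cells of virus infection. They bind receptors that act through JAK kinases and STAT and IRF factors and switch on a large set of antiviral genes. OAS2 belongs to that set. It encodes an enzyme that senses double-stranded RNA and makes short oligoadenylates, which act as an antiviral second messenger. USP18 is also switched on by interferon, but it is a brake: it removes the ubiquitin-like modifier ISG15 from proteins and blocks signalling at the type I interferon receptor. IL18 is a cytokine of the interleukin-1 family that is made as an inactive precursor, cut by caspase-1 in inflammasomes, and drives interferon gamma production in T and NK cells. CCL5, or RANTES, is a chemokine of activated T cells, NK cells and platelets among others, and attracts leukocytes through receptors that include CCR1 and CCR3.

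Library totals of 23608242 reads in the control and 22863584 in the heat arm were inferred from the deposited RPKM values (reads scaled by gene length and by the library's total). Defining fibre genes were abundant: the muscle actin ACTA1 stood at 68749 RPKM in the control and 65219 in the heat library, and the intermediate filament gene DES at 2203 and 2567. The log2 ratio used throughout is log2((heat RPKM + 1)/(control RPKM + 1)), given for the 13191 entries whose RPKM averaged 1 or more. The pseudocount of 1 shrinks the ratio of low genes. Over these entries the median log2 ratio was 0.05, 95% lay between -0.57 and 0.66, and 58.8% lay above 0. Intervals are exact 95% intervals (Poisson for a level, Clopper-Pearson for a ratio) from the smallest whole reads that the values allow. They cover counting error only and say nothing of differences between pigs. PCR copies are not independent molecules, so the intervals can also be too narrow.

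OAS2 (ENSSSCG00000009881) stood at 4.51 RPKM in the control library (interval 4.02 to 5.05) and at 7.89 in the heat library (7.22 to 8.60). These levels rest on 304 and 515 reads over a length of 2855 bp. The heat library was the higher, and the intervals of the levels did not overlap. The RPKM ratio was 1.75 (1.52 to 2.02) and the log2 ratio 0.69. Among the 3054 genes within 1.5-fold of its mean RPKM, 1.28% had a log2 ratio at least as high. Because the genes were chosen by these ratios, this share and those given below for the others are descriptions. They do not measure how unusual a gene is.

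USP18 (ENSSSCG00000000774) stood at 2.22 RPKM in the control library (1.71 to 2.82) and at 1.60 in the heat library (1.17 to 2.13). It rests on 66 and 46 reads over 1261 bp. The control library was the higher, but the intervals overlapped. The RPKM ratio was 0.720, with an interval of 0.483 to 1.06 that holds 1, and the log2 ratio was -0.31. Of 3425 genes of like level, 10.7% had a log2 ratio at least as low.

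IL18 (ENSSSCG00000015037) stood at 1.31 RPKM in the control library (0.864 to 1.91) and at 2.56 in the heat library (1.90 to 3.36). Only 27 and 51 reads over 872 bp lie behind these values. The intervals of the levels just touched. The RPKM ratio was 1.95, with a wide interval of 1.20 to 3.23, and the log2 ratio 0.62. Of 3421 genes of like level, 5.38% had a log2 ratio at least as high.

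CCL5 (ENSSSCG00000017705) was the most abundant of the 4 per length, at 22.6 RPKM in the control library (20.1 to 25.3) and 18.3 in the heat library (16.1 to 20.8). It rests on 296 and 233 reads over 556 bp. The control library was the higher, with a narrow overlap of the intervals. The RPKM ratio was 0.813 (0.682 to 0.968) and the log2 ratio -0.28. Of 1554 genes of like level, 6.37% had a log2 ratio at least as low. In the order of levels CCL5 was followed by OAS2 in both libraries, with intervals that did not overlap. USP18 came above IL18 in the control library and below it in the heat library, and in each case their intervals overlapped.

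**Figure D1:**
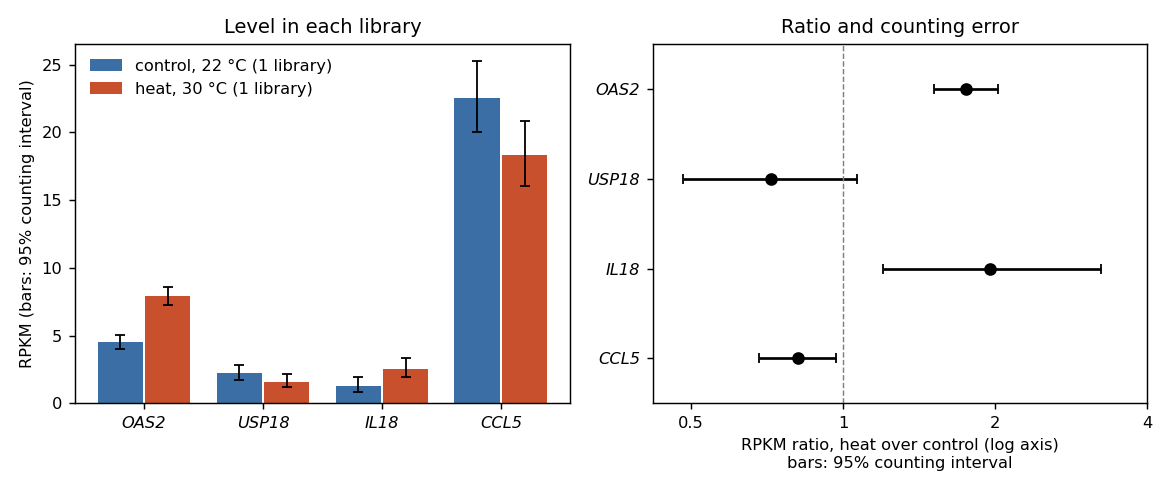
Left, RPKM of OAS2, USP18, IL18 and CCL5 in the control and the heat library (1 library each), with 95% counting intervals as error bars. Right, the RPKM ratio of heat over control on a log axis with its 95% counting interval: OAS2 (1.75) and IL18 (1.95) lie above 1, CCL5 (0.813) below 1, and the interval of USP18 (0.720) holds 1.

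On the size threshold of 1.5-fold on the log2(RPKM + 1) scale, OAS2 and IL18 were past it on the high side and none of the 4 on the low side. Of all genes compared, 3.44% were past it on the high side and 2.37% on the low side. The counting interval of the ratio lay above 1 for OAS2 and IL18, as it did for 20.1% of genes compared, and below 1 for CCL5, as for 9.99%. Nothing is read from these member counts, since the same ratios chose the genes. IL18 lay close to the threshold, which is 0.585 in log2 units, and after centring the ratios of all genes on a median of 0 it stood at 0.58, just under it. OAS2 then stood at 0.64. With a pseudocount of 5 OAS2 stood at 0.44 and IL18 at 0.26, both under it.

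**Figure D2:**
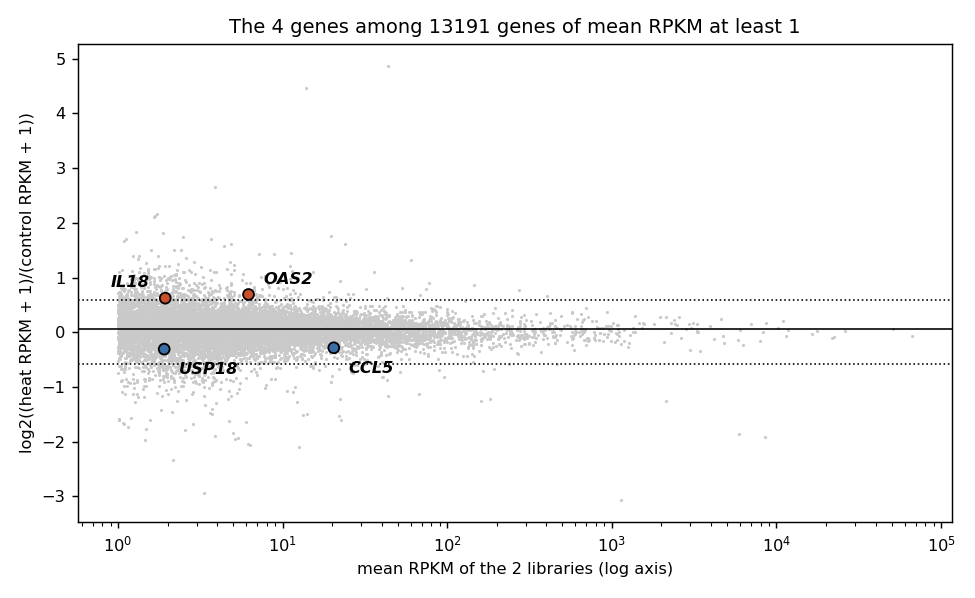
Log2((heat RPKM + 1)/(control RPKM + 1)) against mean RPKM (log axis) for 13191 genes, with the 4 genes as large points, the median of 0.05 as a solid line and 1.5-fold as dotted lines. OAS2 and IL18 sit just above the upper dotted line, USP18 and CCL5 between the lines, and the spread of all genes is widest at low RPKM.

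The genes whose pair of values lay nearest to each of the 4 were found among all genes with a symbol, by distance in log2(RPKM + 1) over the 2 libraries. For OAS2 these were ZNF385A (4.62 RPKM in the control and 8.13 in the heat library), TMUB2 (4.42 and 7.45) and SERPINB1 (4.997 and 7.65), none of them on the interferon lists. For USP18 they were RAB34 (2.21 and 1.60), THSD1 (2.20 and 1.59) and RECQL5 (2.24 and 1.62). For IL18 they were KCNIP2 (1.35 and 2.65), NOSTRIN (1.38 and 2.54) and TRIM21 (1.38 and 2.64), the last an intracellular antibody receptor that is itself switched on by interferon. For CCL5 they were PI16 (22.3 and 18.4), ARF6 (21.8 and 18.7) and the collagen gene COL5A1 (23.6 and 17.9). A likeness over 2 libraries is a description of 2 numbers.

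Neighbours on the chromosome were taken from the RefSeq order of genes on the Sscrofa11.1 assembly, a later build than the Sscrofa10.2 that the submitters' processing notes name. No other RefSeq gene overlapped any of the 4 there. SLC8B1, a mitochondrial sodium-calcium exchanger next to OAS2, stood at 0.866 RPKM in the control and 1.68 in the heat library, which is 1.94 times as high (1.39 to 2.72) on 57 and 107 reads. OAS2 and SLC8B1 were thus both higher in the heat library. TPCN1, the next gene on that side, was at 3.25 and 3.498 (ratio 1.08, 0.918 to 1.26), and on the other side RPH3A, with 1 gene between, was at 0.0415 RPKM in the control and listed at 0 in the heat library. Strand is not mentioned in the protocol, and whether reads of neighbouring transcripts entered the OAS2 count was not tested. Near USP18, with 1 gene between on each side, PEX26 was at 9.77 and 9.72 RPKM and CPNE8 at 0.505 and 0.508. Beside IL18, the respiratory chain gene SDHD was at 108 and 118 RPKM and BCO2, with 1 gene between, at 0.251 and 0.306. Beside CCL5, HEATR9 was at 0.0241 RPKM in the control and listed at 0 in the heat library, and TAF15 was at 18.5 and 17.2.

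OAS2 was the one oligoadenylate synthase that could be matched by symbol. OASL, a relative without synthase activity in humans, was at 0.0321 RPKM in the control and listed at 0 in the heat library, and OAS1 and OAS3 were not analysed here. Because genes of the OAS family resemble each other, reads could have been split between them, which makes the OAS2 level uncertain. PDE12, which degrades oligoadenylates, was at 1.75 and 2.06 RPKM (ratio 1.17, 0.958 to 1.44). ABCE1, a ribosome recycling factor on the same list, was at 9.67 and 10.4 (1.07, 0.904 to 1.27). The sensor OAS2 was thus higher by 1.75-fold in the heat library, while the intervals of PDE12 and ABCE1 both held 1.

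USP18 was compared with the enzymes that attach ISG15, the modifier it removes. UBA7, the activating enzyme, stood at 5.05 RPKM in the control and 6.91 in the heat library (ratio 1.37, 1.09 to 1.72). UBE2L6, the conjugating enzyme, was at 8.61 and 7.54 (0.876, 0.670 to 1.14). HERC5, a ligase for ISG15, was at 0.219 and 0.326 on 18 and 26 reads, and TRIM25, another ligase, at 0.995 and 0.978. The conjugation genes therefore lay on both sides of 1, and ISG15 itself was not analysed here.

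Of 48 other antiviral effectors listed, 29 were matched and 23 reached the mean of 1 RPKM. Of these 23, 22 had a log2 ratio above 0, beside 58.8% of all genes compared, and 21 one above 0.05, the overall median. Their median log2 ratio was 0.24, beside 0.05 for all genes, and the counting interval lay above 1 for 11 of the 23, beside 20.1% of all genes, and below 1 for none, beside 9.99%. TRIM21 was past 1.5-fold, at 1.38 RPKM in the control and 2.64 in the heat library (ratio 1.91, 1.37 to 2.71), and was the highest of the list. GBP2, a guanylate-binding protein, came next on the log2 scale, at 2.48 and 3.71 (1.50, 1.03 to 2.20). SAMHD1, a nucleotide hydrolase and the most abundant of them, was at 13.6 and 16.3 (1.19, 1.07 to 1.34). PARP14 was near the low end at 1.05 and 1.11, and IFI35 was the lowest, at 4.69 and 4.30 (0.916, 0.702 to 1.19). An earlier summary of these data had already shown interferon genes on the high side, so this list is no independent support.

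Among textbook interferon-induced genes, picked after their values were seen, RSAD2, which makes an antiviral nucleotide, was at 3.14 and 4.51 RPKM (1.44, 1.11 to 1.87). IFI44L was at 5.59 and 7.59 (1.36, 1.15 to 1.61). The GTPases MX1, at 4.18 and 5.24 (1.25, 1.022 to 1.53), and MX2, at 3.81 and 5.30 (1.39, 1.09 to 1.77), were likewise higher in the heat library. IFIT1 (2.58 and 2.92), IFIT2 (2.85 and 2.99) and IFIT5 (3.31 and 3.61) had intervals that held 1. OAS2, USP18 and all other compared genes of the OAS, ISG15 and effector lists with an interval were 29 in all. Among these, OAS2 had the ratio second to that of TRIM21 and USP18 had the lowest. The choice of OAS2 and USP18 by these same ratios favours such places, so nothing is read from them. The ratio interval of OAS2 overlapped those of many others, among them TRIM21, GBP2, RSAD2, MX2, UBA7, IFI44L, IFIT1 and, narrowly, MX1. An overlap does not show that 2 ratios are alike within counting error, and OAS2 was not compared with these genes directly. Its interval also lay wholly above those of many others, among them ADAR, an RNA-editing enzyme (ratio 1.26, 1.11 to 1.43), and SAMHD1. The same held for PARP14, IFIT2, IFIT5, PDE12, ABCE1, IFI35, UBE2L6 and USP18. The ratio that chose OAS2 enters each of these comparisons.

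**Figure D3:**
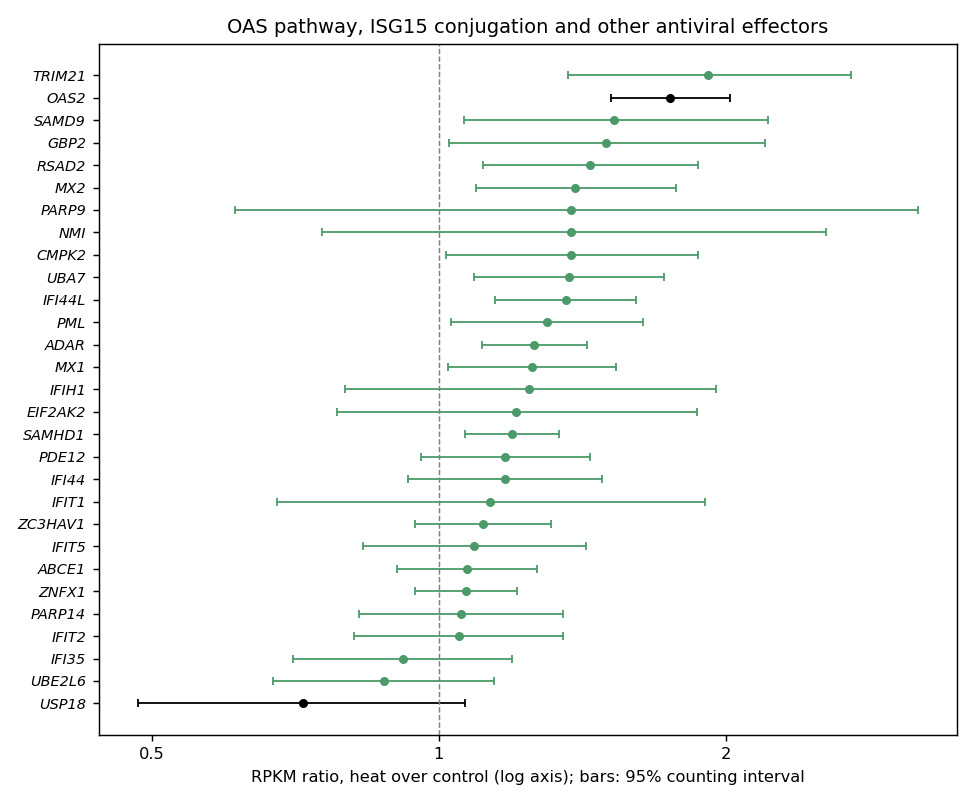
RPKM ratio of heat over control (log axis) with 95% counting intervals for 29 genes of the OAS pathway, ISG15 conjugation and other antiviral effector lists with a mean RPKM of at least 1, OAS2 and USP18 in black. TRIM21 (1.91) and OAS2 (1.75) lie at the top and USP18 (0.720), UBE2L6 (0.876) and IFI35 (0.916) at the bottom. OAS2 and USP18 were chosen by these ratios.

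Upstream of OAS2 and USP18, 3 of 7 listed interferon ligands were matched: IFNB1 and IFNE were listed at 0 in both libraries, and IFNK was listed at 0 in the control and at 0.0698 RPKM in the heat library. Other genes, such as TAP1 and PSMB8 of antigen presentation, were also listed at 0 in both, so a listed 0 is not read as absence. Of the 6 sensors and adaptors compared, 3 had a log2 ratio above 0, beside 58.8% of all genes, and the median was -0.02. None of the 6 was past 1.5-fold, beside 3.44% of all genes on the high side and 2.37% on the low side. RIGI, a sensor of viral RNA, was at 1.59 and 1.47 RPKM, its relative IFIH1 at 1.19 and 1.48 (ratio 1.24, 0.797 to 1.95), the Z-form nucleic acid sensor ZBP1 at 1.75 and 1.85, the receptor chaperone UNC93B1 at 1.13 and 1.02, and the adaptor MAVS at 33.2 in both libraries. Receptors, JAK-STAT members and IRF factors had a median of 0.12 over 16 genes, with 12 above 0. None of the 16 was past 1.5-fold, beside the same 3.44% and 2.37% of all genes. Over all genes compared the median was 0.05, with 58.8% above 0. IRF9, the DNA-binding subunit of the complex that drives OAS2 and USP18, was the highest, at 14.0 RPKM in the control and 19.1 in the heat library (ratio 1.37, 1.17 to 1.60). IRF2 was at 8.80 and 11.5 (1.31, 1.13 to 1.52). STAT2, the partner of IRF9, through which USP18 reaches the receptor, was at 3.77 and 4.45 (1.18, 0.998 to 1.396). The kinase JAK1 was the most abundant, at 30.6 and 32.8, and the phosphatase PTPN6 was at 2.64 and 2.28. IRF5 was the lowest, at 1.59 and 0.955 (0.600, 0.421 to 0.847). The type I receptor chains IFNAR1 and IFNAR2 were not analysed here.

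Around IL18, its inflammasome and receptor genes were low. The receptor chain IL18R1 was at 0.0630 and 0.0434 RPKM on 3 and 2 reads, and IL18RAP was at 0.0484 RPKM in the control and listed at 0 in the heat library. CASP1, the protease that activates IL18, was at 0.594 and 0.711 on 19 and 22 reads (ratio 1.20, 0.618 to 2.34). NLRP3, an inflammasome sensor, was at 0.287 and 0.174 on 17 and 10 reads. No difference was detected in these genes, whose counting intervals were wide where they could be given. GSDMD, the pore protein through which IL18 can leave a cell, was at 3.40 RPKM in the control and 2.35 in the heat library (ratio 0.691, 0.524 to 0.908), opposite in direction to IL18. IRAK4, a kinase of the IL18 signalling path, was at 2.04 and 2.85 (1.396, 0.969 to 2.02), while IRAK1 stood at 32.4 and 32.6 and TAB2 at 34.9 and 37.5. Leaving out IL18, 7 of the 8 other compared genes of this path had a log2 ratio above 0, beside 58.8% of all genes. Their median was 0.07, close to the 0.05 of all genes. With IL18 included, 5 of the 9 lay above that overall median.

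Of 24 other cytokines listed, 15 were matched, and the unmatched ones were not analysed. By mean level IL18 was the third of the 16 cytokine genes that these made with it. MIF, a macrophage cytokine made by many tissues, was far above it at 88.9 and 86.3 RPKM, and TGFB1 was at 4.62 and 5.97 (1.29, 1.07 to 1.56). IL33 (1.84 and 1.94) and IL16 (1.17 and 1.31) were near IL18, with ratio intervals that held 1. IL33 was above IL18 in the control library and below it in the heat library. IL15, a muscle cytokine that acts on NK cells, was at 0.628 and 0.987 RPKM (1.57, 0.903 to 2.79). IL6, IL1A, IL12A and IL12B were each under 0.05 RPKM in the control library and listed at 0 in the heat library. Other low cytokines lay the other way: IL7, CSF2 and LTA were listed at 0 in the control library and at 0.371, 0.110 and 0.0413 RPKM in the heat library, and IL10 was at 0.0319 and 0.231 on 1 and 7 reads. CSF3 was listed at 0 in both.

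Of 26 other chemokines listed, only 11 were matched, and the unmatched ones were not analysed. With CCL5 they made 12 genes. CCL5 was the highest of these 12 and took 60.7% of their summed RPKM in the control and 54.1% in the heat library. CCL19 was at 5.26 and 5.73 RPKM (ratio 1.09, 0.809 to 1.47), CXCL14 at 5.49 and 4.86 (0.884, 0.725 to 1.08) and CCL2 at 2.39 and 2.85 (1.19, 0.785 to 1.82). These 3 were the other chemokines compared, and their intervals all held 1. CCL17 and CCL28 were listed at 0 in both libraries. The gap between CCL5 and the next of the matched chemokines was thus wide in each library. Its place among all chemokines of this muscle is not known.

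The receptors described here were low. CCR1 was at 0.232 and 0.254 RPKM on 16 and 17 reads and CCR3 at 0.0948 and 0.294 on 1 and 3 reads. Neither ratio had an interval that left 1 out. KLF13, a factor known to switch on CCL5 late in T cell activation, was at 6.75 and 6.14 (0.909, 0.824 to 1.003). CCRL2, a decoy-like receptor of the same family, was at 1.10 and 1.03 (0.941, 0.560 to 1.58).

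**Figure D4:**
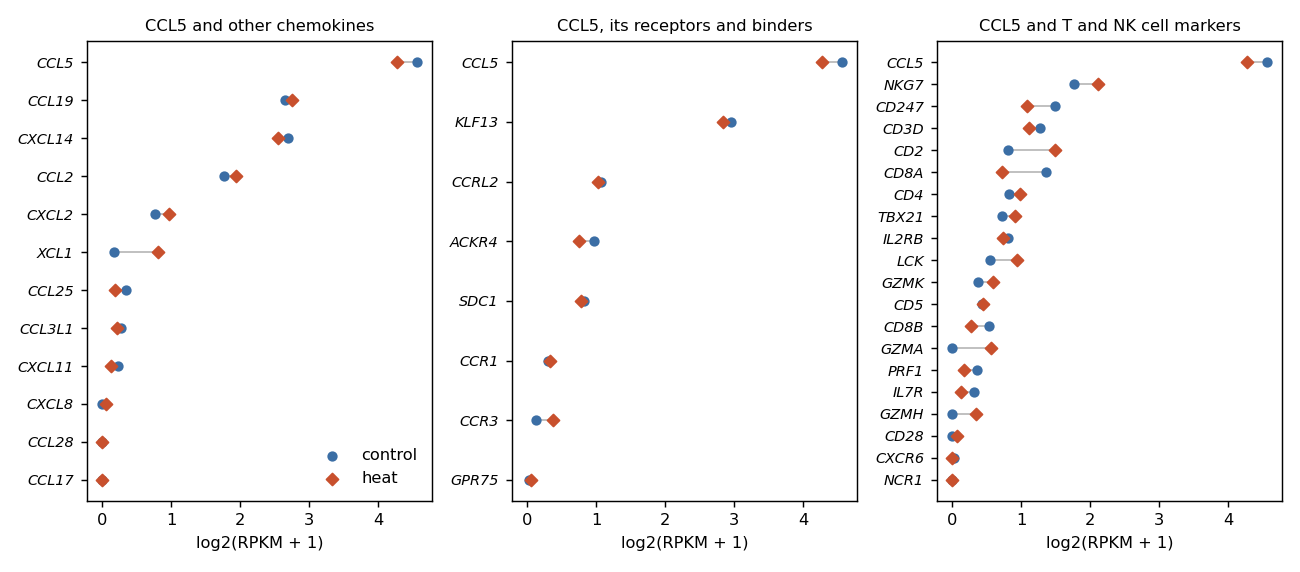
Level as log2(RPKM + 1) in the control (circles) and heat (diamonds) library of CCL5 beside other chemokines, its receptors and binders, and T and NK cell markers, each panel ordered by mean RPKM. CCL5 lies above every other gene shown, and most receptors and T cell markers lie near or below 1 RPKM.

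Markers of the cells that can make CCL5 moved in both directions beside it. Of 26 T and NK cell markers, 19 were matched and 5 of those averaged 1 RPKM or more. The summed level of the 19 was 12.2 RPKM in the control and 13.5 in the heat library, and NCR1 was listed at 0 in both. CD8A, the co-receptor of cytotoxic T cells, was at 1.57 and 0.644 (ratio 0.409, 0.241 to 0.674), and the receptor chain CD247 at 1.79 and 1.12 (0.626, 0.340 to 1.12). CD2 was at 0.750 and 1.81 (2.41, 1.58 to 3.74) and NKG7, of cytotoxic granules, at 2.40 and 3.32 (1.38, 0.945 to 2.04). CD3D was at 1.42 and 1.16 on 24 and 19 reads (0.817, 0.423 to 1.56). Markers under a mean of 1 RPKM also lay on both sides. LCK was at 0.463 and 0.916 on 23 and 44 reads (1.98, 1.17 to 3.43), and CD8B at 0.439 and 0.209 on 13 and 6 reads (0.477, 0.149 to 1.34). CD8A and CCL5 were thus lower in the heat library and CD2 and LCK were higher. The intervals of CD247, NKG7, CD3D and CD8B held 1. The part of these cells in the CCL5 values was not tested. The 2 platelet markers matched, GP1BB and TREML1, summed to 0.169 and 0.129 RPKM.

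Macrophages are a known source of IL18. Of 18 macrophage and monocyte markers, 11 were matched and summed to 50.3 RPKM in the control and 50.9 in the heat library, and 8 were compared, with a median log2 ratio of -0.03. LYZ, at 1.09 and 3.29 (ratio 3.02, 1.89 to 4.96), and CD68, at 3.61 and 5.36 (1.49, 1.11 to 1.99), were higher beside IL18. TYROBP, at 11.3 and 7.83 (0.691, 0.527 to 0.902), and MRC1, at 1.29 and 0.959 (0.744, 0.556 to 0.991), were lower. C1QA, a complement gene of tissue macrophages, was at 19.1 and 17.7. The summed marker level was close to equal in the libraries, while single markers lay on both sides. Their part in the IL18 values was not tested. B and plasma cell markers (7 of 10 matched) summed to 0.897 and 2.05 RPKM, and neutrophil markers (5 of 10) to 0.710 and 1.63, with no gene of either list averaging 1 RPKM and MPO listed at 0. Endothelial markers (7 of 10) summed to 156 and 175 RPKM with a median log2 ratio of 0.05, which was -0.01 after centring. PECAM1 was at 111 and 127 RPKM, TEK at 5.37 and 6.67 and ERG at 3.61 and 5.08 (ratio 1.41, 1.22 to 1.63), while KDR was at 5.09 and 4.63 and TIE1 at 5.57 and 5.02. Fibre markers (10 of 20 matched) had a median of -0.08, with PVALB, a calcium buffer of fast fibres, past 1.5-fold on the low side at 226 and 93.7 RPKM (0.415, 0.388 to 0.443). MYOD1, a muscle transcription factor, was at 12.9 and 10.3 (0.799, 0.708 to 0.902) and TNNC1, the slow and cardiac troponin C, at 2298 and 2793.

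Genes of antigen presentation that respond to interferon gamma, the cytokine that IL18 elicits, had a median log2 ratio of 0.09 over 10 compared genes. Of these 10, 6 lay above 0. None lay past 1.5-fold, beside 3.44% of all genes on the high side and 2.37% on the low side. Over all genes compared the median was 0.05, with 58.8% above 0. SLA-DMB, of the class II pathway, was at 6.47 and 8.23 RPKM (1.27, 1.06 to 1.53) and the proteasome activator PSME1 at 35.97 and 44.3 (1.23, 1.12 to 1.35). SLA-DQB1 was at 45.4 and 44.6, TAPBP, the class I loading factor tapasin, at 13.5 and 11.9 (0.881, 0.766 to 1.01) and TAPBPL at 2.83 and 2.52. The transporter gene TAP1 and the immunoproteasome gene PSMB8 were listed at 0 in both libraries.

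Over all 11 role lists together, 217 genes were listed, 133 were matched and 78 were compared. Of these 78, 3 were past 1.5-fold on the high side (OAS2, IL18 and TRIM21, or 3.85%, beside 3.44% of all genes) and none on the low side (beside 2.37%). CCL5 is on none of these lists. Without OAS2, USP18 and IL18 the median log2 ratio of the 75 others was 0.10, with 57 above 0 and 18 below. Over all genes compared the median was 0.05, with 58.8% above 0. The list of other antiviral effectors alone gave 22 of the 57, from 23 genes. The 3 genes became 1, OAS2, after centring on the median, and 4 with no filter and with no pseudocount. IRF5 passed 1.5-fold on the low side with a pseudocount of 0.1 and with none.

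**Figure D5:**
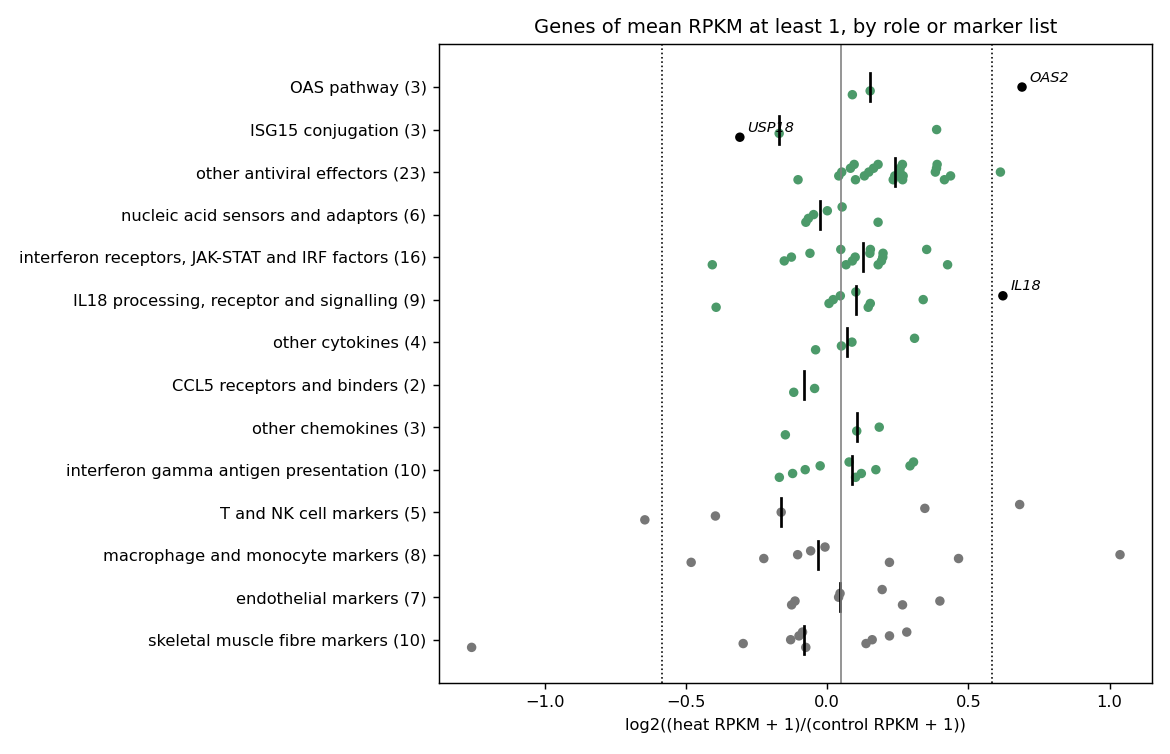
Log2((heat RPKM + 1)/(control RPKM + 1)) of each compared gene by role list (green) and cell marker list (grey), with the number of genes in brackets, OAS2, USP18 and IL18 in black, list medians as short bars, the median of all genes (0.05) as a grey line and 1.5-fold as dotted lines. The antiviral effectors lie mostly right of the grey line (median 0.24), and T and NK cell markers spread to both sides.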

How the data were processed

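Poly(A) RNA of 1 library per arm was sequenced from 3 µg of total RNA with 10 PCR cycles and fragments near 200 bp, per the labels' protocols. The authors deposited 1 RPKM value per gene and library. Bowtie, TopHat 1.4.0, Cufflinks 1.3.0 and Sscrofa10.2 are named without roles, per the submitters' processing notes. The counting tool, the source of gene lengths and the treatment of reads with several matches are not given in the sources used here.

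Symbols came from a table of pig gene names, which matched 11374 of 27987 entries. Of a symbol on several entries the highest was taken. The lists held 317 symbols, of which 194 were found under that symbol or a synonym noted in the list. Unmatched genes were not analysed here, and some genes of the lists enter the counts but are not reported here by name.

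Library totals and reads were recovered from the values. The control to heat ratio of totals was 1.03. With it, 99.9% of 13134 entries under 5 RPKM gave a whole pair of reads, against 0.244% with a wrong ratio. Above a set lower limit, the control total was the largest at which the greatest share of gene lengths came close to whole. A total divided by a whole number fits at least as well, so the choice rests on that limit. The heat total followed from the control total and the ratio. With that control total, 67.5% of the 7706 genes used had a length whole within 0.001 bp at their smallest read pair. For each gene the smallest reads giving a length whole within 0.001 bp were used, trying multiples of a read pair up to 100. These limits replaced a first setting (0.01 bp, multiples to 20) after its results were seen, because listed genes such as IRF2 and STAT2 had no interval under it. Tested on simulated data with known reads for 5931 entries under a mean of 5 RPKM, the method returned 83.7% of read pairs exactly. It returned 100% at or under the true reads, so on this account intervals can be too wide. OAS2 and CCL5 lie above 5 RPKM, where recovery was not scored. Reads could not be resolved for 372 of 13191 compared entries. A read on 1 kb is worth 0.0424 RPKM in the control library.

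The members, the gene lists, the tests and the alternatives were chosen with earlier results of these data known. The named genes are the 4 members, their 3 nearest genes by value and, per list, the 2 highest and 2 lowest log2 ratios and the most abundant gene. Partners and cell markers under 1 RPKM, the chemokine and cytokine level orders, chromosomal neighbours and the genes said to be picked later were added. The shares of genes of like level, neighbours and plain ratios were added after the data were seen. A planned search of promoters was not run, as promoter sequences were not used here. Python 3.11.15, numpy 2.4.6, pandas 2.3.3, scipy 1.17.1 and matplotlib 3.10.9 were used.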

Additional observations from a re-analysis of the deposited data

How the results depend on the processing

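No paired analysis was possible because each arm has 1 library. The log2 ratios of the 4 genes kept their sign under the 3 rescalings, which are small. A pseudocount cannot change the sign, and summing entries changes nothing, since each symbol stood on 1 entry. With a pseudocount of 5 OAS2 stood at 0.44 and IL18 at 0.26. Past 1.5-fold, 454 genes were higher and 313 lower as reported. A pseudocount of 0.1 gave 934 and 565, a pseudocount of 5 gave 53 and 59, and none gave 1021 and 591. Without a filter there were 785 and 482, above a mean of 5 RPKM 97 and 69, and at 2-fold 83 and 77. The 3 higher genes of the role lists became 1 after centring, after trimmed mean rescaling and above a mean of 5 RPKM. They became 0 with a pseudocount of 5 and at 2-fold, and 4 with no filter and with no pseudocount. The 0 lower ones became 1 with a pseudocount of 0.1 and with none. A larger pseudocount shrinks every ratio and a stricter filter leaves fewer genes, and beyond that the cause was not tested. The plain ratio was added after the data were seen. The first read recovery setting, replaced after its results were seen, gave counting intervals for 12639 genes, with 2526 above 1 (against 2578 as reported) and 1253 below 1 (against 1280). In the role lists it gave 17 above 1 against 20, and 3 below 1 in both. The reads of all 4 members were the same under both. Rescaling moved the median of all genes by at most 0.05. Medians that changed sign were those of endothelial markers (0.05, and -0.01 after centring or trimmed mean rescaling), of sensors (-0.02, 0.02 without the 10 highest genes and 0.005 with no filter) and of T and NK cell markers (-0.16, 0.04 with no filter). Depth limits genes with few reads, as the wide interval of IL18 (1.20 to 3.23) shows.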
